A study of Mus musculus with 12 samples.

Results

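The genes described here handle heme and iron in brown fat, and they were followed through deletion of Cdk7 and through cold. There are 10 of them among the 53379 gene IDs counted: the scavengers hemopexin (Hpx) and haptoglobin (Hp), the heme-degrading enzyme heme oxygenase 1 (Hmox1), the iron importers Tfrc and Slc11a2, the iron exporter Slc40a1, the ferritin subunits Fth1 and Ftl1, and the heme-making enzymes Alas1 and Fech. Hpx was chosen by its rise in the cold in WT, so its values in that comparison and in every other one that shares those libraries are given as a description, with no test. The other 9 were taken for what they do.

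RNA was sequenced from the interscapular brown fat of C57BL/6 mice, 12 weeks old and killed at zeitgeber time 9. The 4 groups were CDK7 bKO mice (KO), which carry a brown fat deletion of Cdk7, kept in the cold for 6 h with food present, KO mice at room temperature (RT), wild-type control littermates (WT) in the same cold, and WT mice at RT. Each group had 3 pools, and each pool held 250 ng of RNA from each of 2 mice. The driver of the deletion, the sex of the mice and the temperature of the cold are not given in the sources used here. Cdk7 was measured at 4.35 to 5.77 CPM in the 6 KO pools and at 15.1 to 18 CPM in the 6 WT pools.

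Heme is the iron-porphyrin group of the respiratory cytochromes, and brown adipocytes, whose mitochondria burn fuel for heat, need a steady supply of it. Iron enters cells with transferrin through the receptor made from Tfrc, leaves the endosome through the transporter made from Slc11a2, is stored in ferritin shells of heavy and light subunits, and leaves the cell through ferroportin, made from Slc40a1. Alas1 starts heme synthesis, Fech ends it by inserting iron, and Hmox1 opens the heme ring and frees the iron.

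Part of this set is known to be controlled through the iron-responsive element (IRE), a hairpin in the mRNA bound by iron regulatory proteins when iron is scarce. A hairpin in the 5′ UTR blocks translation, and hairpins in the 3′ UTR protect the mRNA from decay, so transcript levels read only the control through the 3′ UTR. IREs were looked for in GENCODE M21 transcripts as an unpaired C, 5 paired bases, a CAGUGN loop and 5 further paired bases. Fth1, Ftl1 and Slc40a1 each had 1 match in the 5′ UTR, Tfrc had 4 in the 3′ UTR, and the other 6 members, Slc11a2 among them, had no match. The pattern allows no bulge or mismatch in the paired bases and would miss a hairpin of another shape. The lack of a match therefore does not show the lack of an IRE. Over all genes, 28 of 20873 with a 5′ UTR held a match (0.134%), and 127 of 21669 with a 3′ UTR (0.586%). The ferritin and Tfrc hairpins are shown because these genes stand on opposite sides of this control. Capitals mark the loop. The Fth1 site is at chr19:9982732-9982759 (plus strand), the Ftl1 site at chr7:45459780-45459807 (minus strand), and the Tfrc sites run in order from chr16:32631219-32631246 to chr16:32631710-32631737 (plus strand), all on GRCm38.

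Fth1 5′ UTR: uuccugcuucaaCAGUGCuugaacggaa

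Ftl1 5′ UTR: gucuugcuucaaCAGUGUuugaacggaa

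Tfrc 3′ UTR site 1: aauuaucggaagCAGUGCcuuccauaau

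Tfrc 3′ UTR site 2: cauuaucgggagCAGUGUcuuccauaau

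Tfrc 3′ UTR site 3: cuauaucggagaCAGUGAucuccauaug

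Tfrc 3′ UTR site 4: aauuaucgggaaCAGUGUuucccauaau

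The promoter of Hpx is shown because Hpx is the member chosen by its response. The 250 bases before its start (RefSeq, GRCm38.p6, chr7:105600117-105600366, minus strand) hold 1 match to the antioxidant response element core TGACNNNGC, searched on both strands. The match begins 95 bases before the start, lies on the opposite strand and stands in capitals. The same letters were found in 10.2% of 32851 windows of 250 bases. The cAMP response element TGACGTCA (1.55% of windows) and its shorter core TGACG, which every full element also holds (17.8%), were not found in the Hpx window. Alas1 and Tfrc each had the shorter core in 1 of their 2 windows, and no other match to the 3 motifs was found in the windows of Alas1, Tfrc, Fth1 and Ftl1. Hp, Hmox1, Slc40a1, Slc11a2 and Fech were not searched.

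Hpx promoter: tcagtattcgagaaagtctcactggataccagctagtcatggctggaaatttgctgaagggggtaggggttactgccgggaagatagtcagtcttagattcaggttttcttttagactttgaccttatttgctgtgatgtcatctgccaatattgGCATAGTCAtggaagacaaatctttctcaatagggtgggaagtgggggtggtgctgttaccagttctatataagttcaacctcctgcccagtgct

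Between 27609717 and 36792555 reads were assigned to genes in each library. Levels are CPM, counts relative to the library total, scaled by TMM factors, which even out the bulk of genes between libraries. The tissue had the transcripts of brown fat, with Ucp1 at 3610 to 17500 CPM, and the summed level of 9 brown adipocyte markers was 15800 to 17000 CPM in KO cold, 13900 to 16400 CPM in KO RT, 30800 to 34400 CPM in WT cold and 19100 to 22200 CPM in WT RT. Summed macrophage markers (13 genes, of which Itgam was at 0 in all 12 libraries) gave 286 to 395 CPM in KO cold, 237 to 305 CPM in KO RT, 110 to 119 CPM in WT cold and 78.7 to 101 CPM in WT RT. Of 11 macrophage markers tested, 9 were higher in KO at each temperature, as were 5 of 6 endothelial markers, beside 19.3% of all genes at RT and 25.9% in the cold. Skeletal muscle markers (15 genes) summed to 45.3 to 1420 CPM, highest in KO RT replicate 6 and WT RT replicate 2. Hepatocyte markers (7 genes) summed to 0.0817 to 0.43 CPM, with Ttr, Fga and Fgb at 0 in all 12 libraries, neutrophil markers (8 genes) to 0.843 to 4.82 CPM, and red blood cell markers (6 genes) to 248 to 357 CPM. In bulk tissue, fewer cells of a type and less RNA per cell cannot be told apart.

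All 10 members passed the filter on low counts. Fold changes are log2, with the standard error after ±, and a call means an adjusted p under 0.05 by edgeR's quasi-likelihood test over 15208 genes, with 3 pools in each group. Calls were made for the 9 members other than Hpx, and for all 10 in the comparison of cold with RT in KO. In KO against WT at RT, 1 of 9 was higher (Ftl1; 19.3% of all genes were called higher) and 3 were lower (Hp, Slc11a2 and Slc40a1; 21% of all genes). In KO against WT in the cold, 2 of 9 were higher (Ftl1 and Fech; 25.9%) and 2 were lower (Hp and Slc11a2; 27.8%). Cold in KO gave 2 of 10 higher (Hpx and Ftl1; 7.29%) and 1 lower (Slc11a2; 7.56%). Cold in WT gave 2 of 9 higher (Hmox1 and Ftl1; 23%) and 2 lower (Slc40a1 and Fech; 23.2%). The cold response itself differed between the genotypes for 2 of 9, both higher in KO relative to WT (Slc40a1 and Fech; 10.6% higher and 12.9% lower over all genes). With library totals in place of TMM factors these counts were 2 higher and 2 lower for KO against WT at RT, 4 and 1 in the cold, 2 and 0 for cold in KO, 2 and 3 for cold in WT, and 2 and 0 for the difference. The shares of all genes above were found with TMM factors and do not apply to library totals. With so few members, none of these counts is read as particular to them. The median log2 fold change of the members tested was 0.005, -0.023, 0.039, -0.011 and -0.1 in this order of comparisons, beside 0.0033, 0.012, -0.025, -0.031 and 0.011 over all genes. Under that scaling the median of all genes became 0.22 (KO against WT at RT), 0.45 (the same in the cold), -0.23 (cold in WT) and 0.24 (the difference of cold responses), so the directions below are relative to the bulk of genes. The comparisons share groups with each other and are not independent.

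**Figure D1:**
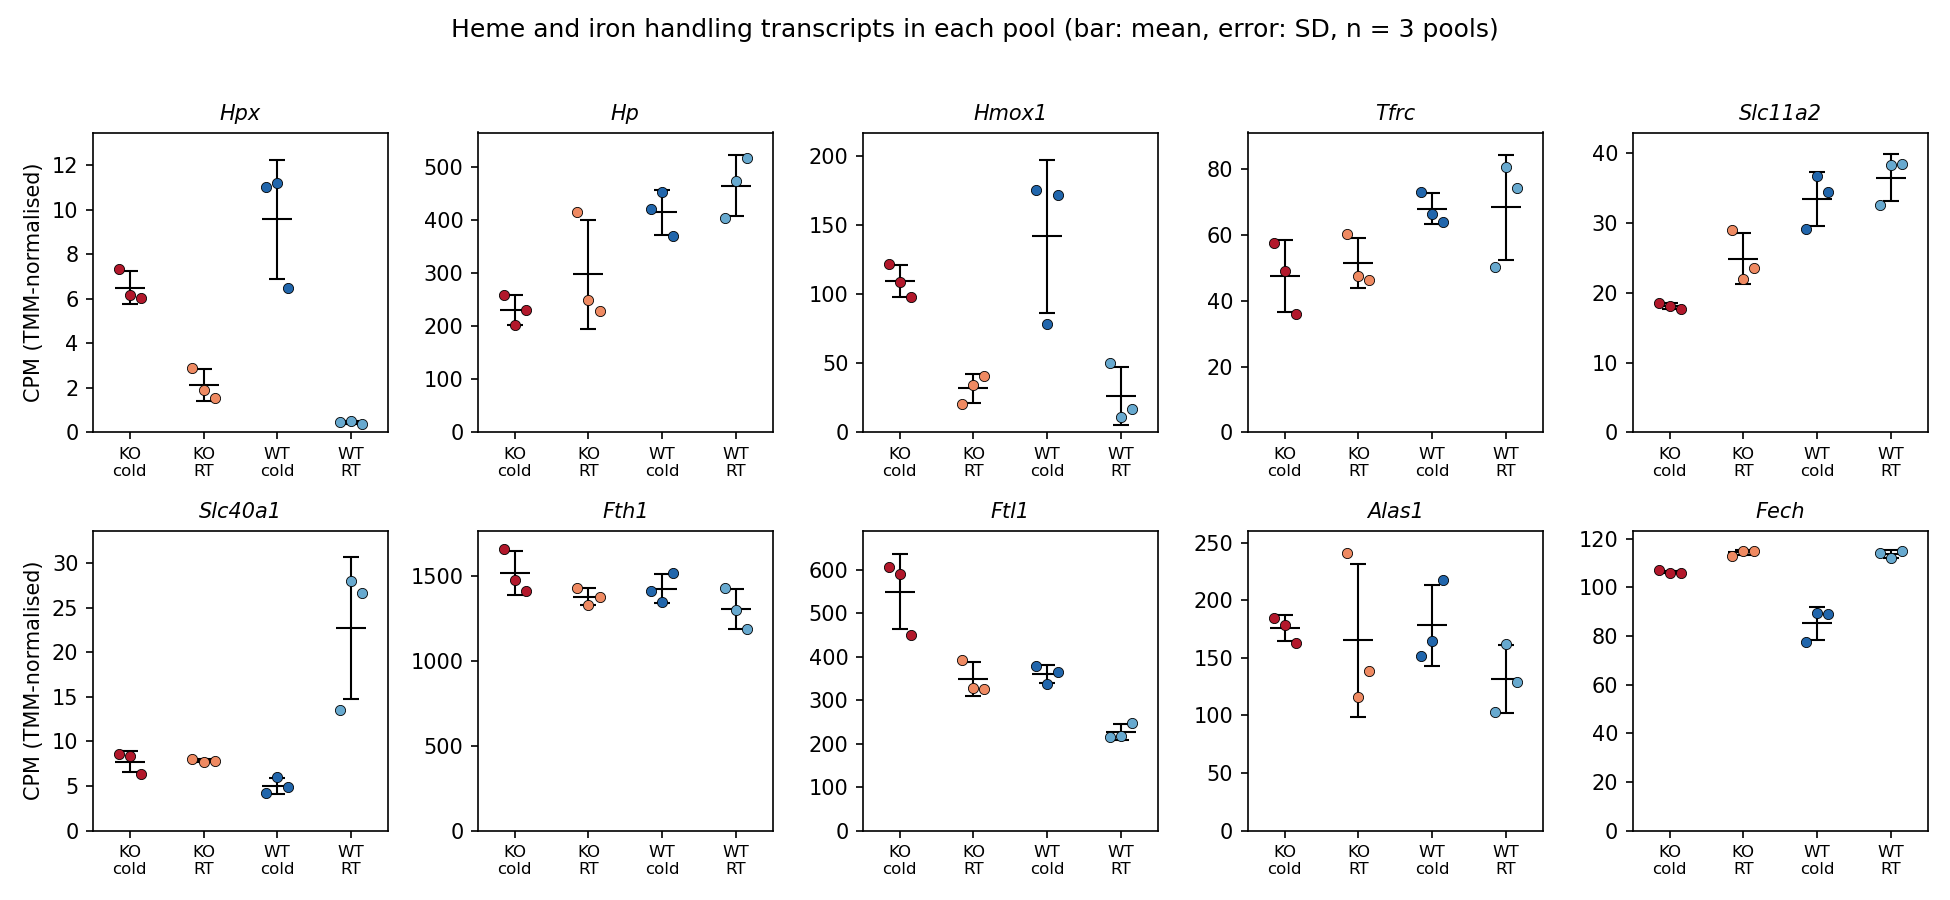
CPM of each member in every pool (points), by group, with the mean (bar) and SD (error, n = 3 pools), each axis starting at 0. Hpx and Hmox1 were highest in both cold groups, Slc40a1 was highest in WT RT, and Ftl1 was highest in KO cold and lowest in WT RT.

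Hpx (ENSMUSG00000030895, chr7:105591613-105600137, minus strand) encodes the plasma protein that binds free heme and carries it to cells for disposal. It had 7.33, 6.16 and 6.01 CPM in KO cold and 2.9, 1.91 and 1.53 CPM in KO RT, and every cold pool was above every RT pool. In WT it had 11, 11.2 and 6.48 CPM in the cold and 0.46, 0.484 and 0.381 CPM at RT, where it was counted by 12 to 17 reads in each library. The rise in KO was 3.05-fold (1.61 ± 0.23, adjusted p = 0.00025). The KO groups did not choose Hpx, but this fit shares its estimate of spread with the WT libraries that did, and with only the 6 KO libraries the rise was 1.63 (adjusted p = 0.00036, range over alternatives 7.5e-17 to 0.0027). In WT, as a description, cold and RT differed by 4.43 ± 0.28 (21.5-fold). At RT the KO pools lay above all WT pools (2.26 ± 0.3), in the cold the genotypes overlapped (-0.55 ± 0.21, or -0.11 with library totals), and the cold response in KO minus that in WT was -2.82 ± 0.37. Hpx is made mainly in the liver, and hepatocyte markers summed to at most 0.43 CPM in any library. A part of liver RNA in the level of Hpx was not tested.

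Hp (ENSMUSG00000031722, chr8:109575128-109579172, minus strand) encodes the plasma protein that captures free hemoglobin. Its level was 260, 203 and 231 CPM in KO cold, against 422, 454 and 370 CPM in WT cold, and the KO pools all lay below the WT pools. At RT it was 416, 250 and 229 CPM in KO and 405, 474 and 518 CPM in WT, and KO replicate 4 lay within the WT range. Hp was 1.79-fold lower in KO in the cold (-0.84 ± 0.2, adjusted p = 0.0045) and 1.56-fold lower at RT (-0.64 ± 0.2, adjusted p = 0.025). With library totals the call ended at both temperatures (-0.40, adjusted p = 0.11 in the cold, where the range over alternatives was 3.8e-13 to 0.11, and -0.44, adjusted p = 0.11 at RT). The call at RT also ended when WT RT replicate 2 or 3, KO RT replicate 5 or 6, or both muscle-rich libraries were left out (-0.63, -0.57, -0.53, -0.48 and -0.47), and with only the 6 libraries compared, with adjusted p of 7.1e-09 to 0.14 over its alternatives. That call held in 8 of 15 alternatives and was lost in 7. It held without KO RT replicate 4 (-0.96, adjusted p = 3.6e-05), with DESeq2 (adjusted p = 0.0013) and with limma voom (adjusted p = 0.0016). Cold gave -0.37 ± 0.2 in KO (adjusted p = 0.26) and -0.17 ± 0.2 in WT (adjusted p = 0.53). Of 9 brown adipocyte markers, 5 were lower and 1 higher in KO at RT, beside 21% and 19.3% of all genes. In the cold 4 were lower and 0 higher, beside 27.8% and 25.9%. Neutrophils are another cell type known to hold haptoglobin. Summed neutrophil markers were 2.61 to 4.82 CPM in KO RT and 0.843 to 1.55 CPM in WT RT. In the cold they were 1.42 to 2.65 CPM in KO and 1.24 to 1.82 CPM in WT. The part of either cell type in the level of Hp was not tested.

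Hmox1 (ENSMUSG00000005413, chr8:75093621-75100589, plus strand) encodes the inducible enzyme that degrades heme to biliverdin, carbon monoxide and iron. It had 122, 109 and 98.3 CPM in KO cold, against 20.5, 34 and 40.9 CPM in KO RT. In WT it had 176, 78.2 and 172 CPM in the cold, against 50.3, 11 and 17 CPM at RT. In both genotypes every cold pool was above every RT pool, and WT pools spread widely: WT cold replicate 2 had less than the other cold WT pools, and WT RT replicate 1 had more than the other RT WT pools. In WT the rise in the cold was 5.5-fold (2.46 ± 0.59, adjusted p = 0.0092), and without WT RT replicate 1 it was 3.34. It did not pass with only the 6 WT libraries (2.46, adjusted p = 0.059, range over alternatives 2.1e-110 to 0.059). In KO the difference was 1.79 ± 0.57 (3.47-fold) and missed the threshold (adjusted p = 0.074). It passed with DESeq2 (adjusted p = 0.013), limma voom (0.027), only the 6 KO libraries (0.0085) and no filter beyond 1 count (4.1e-63), and the range over its alternatives was 4.1e-63 to 0.2. The cold responses did not differ detectably between genotypes (-0.67 ± 0.8, 95% interval -2.49 to 1.16), with -1.53 without WT RT replicate 1 and -0.07 without both muscle-rich libraries. KO minus WT was 0.30 ± 0.57 at RT (95% interval -1.02 to 1.61) and -0.37 ± 0.55 in the cold (95% interval -1.64 to 0.9). At RT the value was 1.17 without WT RT replicate 1 and -0.08 without WT RT replicate 2.

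**Figure D2:**
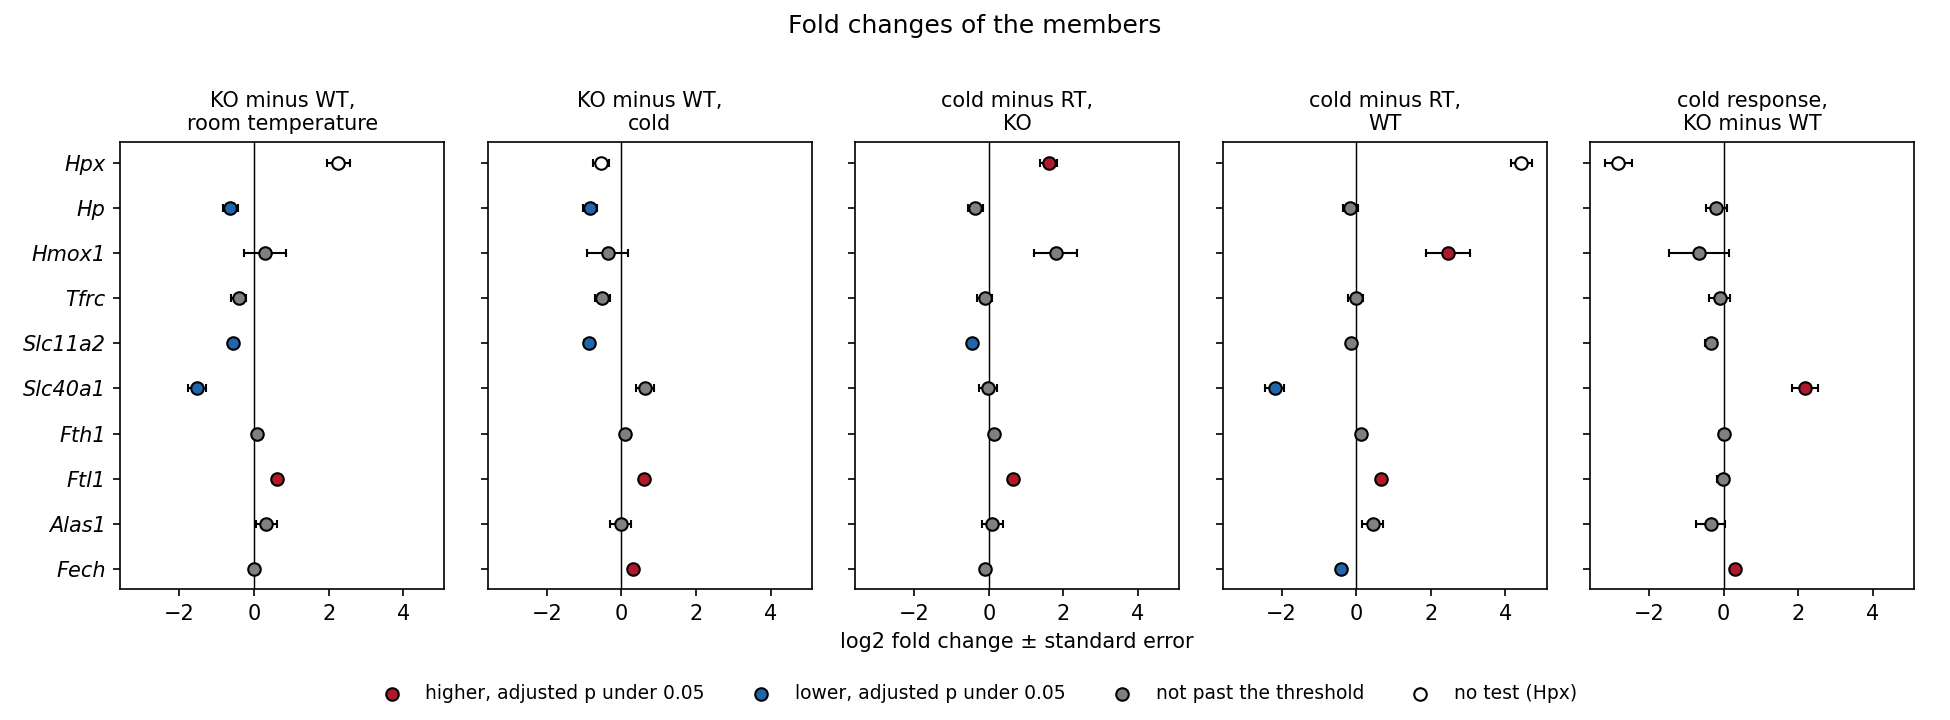
Log2 fold change (point) and standard error (bar) of each member in the 4 pairwise comparisons and in the difference of cold responses, with red for calls of higher, blue for calls of lower, grey for members past no threshold and white for Hpx where it had no test. Ftl1 was higher in all 4 pairwise comparisons and Slc11a2 lower in 3 of them, and Slc40a1 had the largest difference of cold responses among the 9 members tested (2.18).

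Tfrc (ENSMUSG00000022797, chr16:32608920-32632794, plus strand), the receptor that brings in transferrin-bound iron and the member with 4 matches to the IRE pattern in its 3′ UTR, was called in neither genotype for cold. It had 57.6, 49.1 and 35.9 CPM in KO cold and 60.3, 47.6 and 46.4 CPM in KO RT. The WT pools had 73.2, 66.5 and 64.1 CPM in the cold and 50.2, 80.6 and 74.3 CPM at RT. In the cold the KO pools all lay below the WT pools, and at RT the genotypes overlapped through WT replicate 1. KO minus WT was -0.51 ± 0.2 in the cold, just short of a call (adjusted p = 0.051). It was called in 7 of 16 alternatives, with adjusted p of 1.4e-05 to 0.83, and the highest came with library totals. The lowest came with no filter beyond 1 count, where adjusted p did not follow the spread between pools. At RT it was -0.41 ± 0.2 (adjusted p = 0.13, called in 3 of 15 alternatives, no filter beyond 1 count among them). Cold gave -0.11 ± 0.2 in KO (95% interval -0.557 to 0.331) and -0.01 ± 0.2 in WT (-0.454 to 0.432).

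Slc11a2 (ENSMUSG00000023030, chr15:100387898-100425072, minus strand), the divalent metal transporter DMT1 that moves iron out of the endosome, was lower in KO at both temperatures. It had 18.6, 18.1 and 17.7 CPM in KO cold, against 29.2, 36.7 and 34.4 CPM in WT cold. At RT it had 29, 22 and 23.6 CPM in KO and 32.6, 38.3 and 38.5 CPM in WT. No KO pool reached a WT pool of the same temperature. The fall was 1.84-fold in the cold (-0.88 ± 0.11, adjusted p = 7.1e-06) and 1.47-fold at RT (-0.55 ± 0.11, adjusted p = 0.00079), and both calls held under all alternatives tried. Within KO, cold lowered it by 1.37-fold (-0.46 ± 0.11, adjusted p = 0.01), a call that ended without KO RT replicate 4 (-0.33, adjusted p = 0.059) and with library totals (-0.43, adjusted p = 0.052), in a range of 0.0012 to 0.059 over alternatives. Cold in WT gave -0.13 ± 0.11 (adjusted p = 0.36), and the test of the difference between the genotypes gave -0.33 ± 0.16 (adjusted p = 0.14). Slc11a2 overlaps the predicted gene Gm5475 on the opposite strand, which had 0 to 1 counts and shares 2.85% of the 75-base stretches of Slc11a2.

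Slc40a1 (ENSMUSG00000025993, chr1:45908068-45926523, minus strand), the only known cellular iron exporter, had its high level in 1 group alone. It had 8.55, 8.32 and 6.35 CPM in KO cold and 7.99, 7.72 and 7.76 CPM in KO RT. The WT pools had 4.16, 5.99 and 4.88 CPM in the cold and 13.5, 28 and 26.6 CPM at RT. The 3 WT pools at RT were above all 9 others, WT RT replicate 1 by the least, and the 3 WT pools in the cold were below all 9 others. Slc40a1 was 4.56-fold lower in the cold in WT (-2.19 ± 0.25, adjusted p = 2.8e-05), with no detectable change in KO (-0.01 ± 0.24, 95% interval -0.543 to 0.516). The difference between these responses was 2.18 ± 0.35 (adjusted p = 0.0013) and was called under all 20 alternatives, at 1.99 to 2.45. At RT Slc40a1 was 2.91-fold lower in KO than in WT (-1.54 ± 0.24, adjusted p = 0.00042). In the cold KO minus WT was 0.63 ± 0.25 (adjusted p = 0.052), with no overlap of pools. It was called in 10 of 16 alternatives, with adjusted p of 2.1e-05 to 0.17, and passed without WT cold replicate 2 (0.79, adjusted p = 0.042) or without KO cold replicate 3 (0.76, adjusted p = 0.043). The lowest adjusted p came with no filter beyond 1 count, where it did not follow the spread between pools.

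Ferroportin is also a gene of iron-recycling macrophages. The summed macrophage markers were lowest in WT RT (78.7, 99.2 and 101 CPM), where Slc40a1 was highest, and WT RT replicate 1 was the lowest of the 12 libraries in these markers and the lowest of its group in Slc40a1. In WT cold the markers stood at 116, 110 and 119 CPM with Slc40a1 at 4.16 to 5.99 CPM. In KO they stood at 237 to 395 CPM with Slc40a1 at 6.35 to 8.55 CPM. In WT in the cold, where Slc40a1 was lower, 3 of 11 macrophage markers were called higher, beside 23% of all genes, and 0 lower. The part of macrophages in the level of Slc40a1 was not tested.

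**Figure D3:**
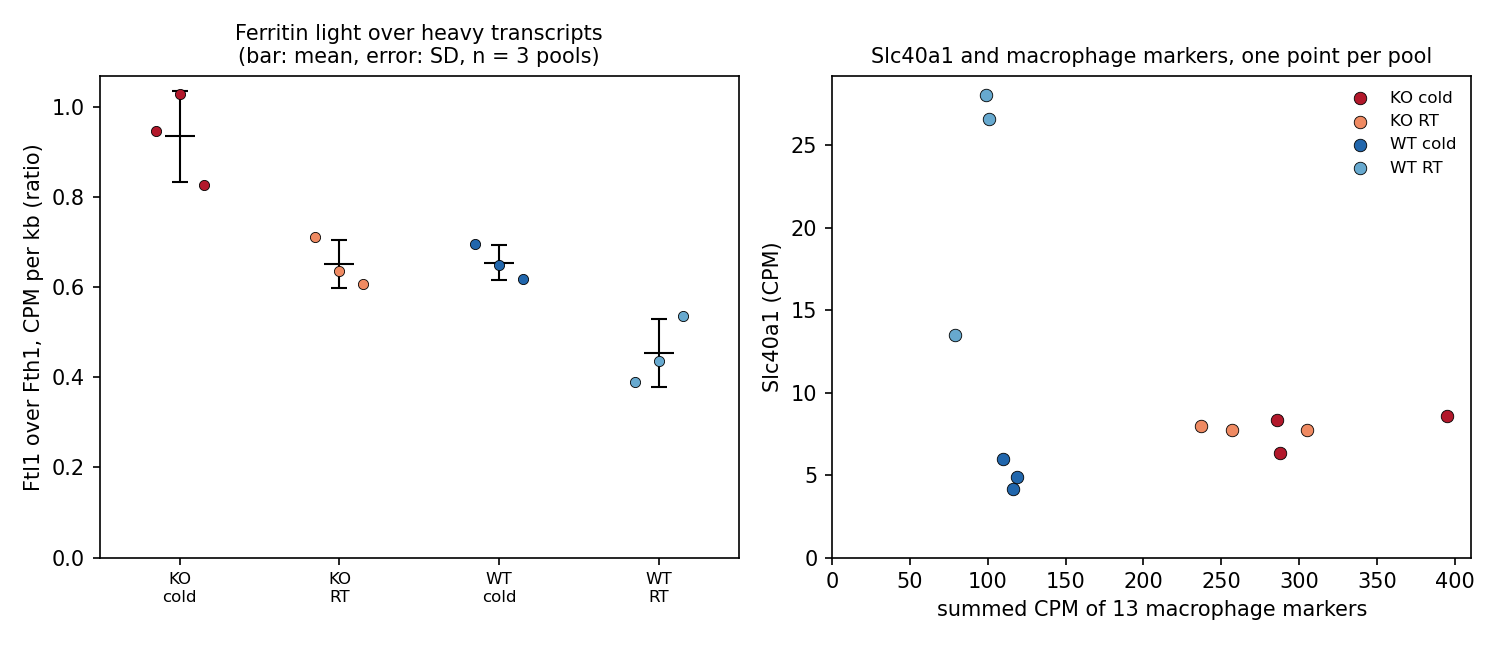
Left, the ratio of Ftl1 to Fth1 transcript level per kb of exon in each pool (points), with the mean and SD (n = 3 pools). Right, Slc40a1 (CPM) against the summed CPM of 13 macrophage markers, a point for each pool. The ratio was highest in KO cold (0.936) and lowest in WT RT (0.454), and the WT RT pools combined the highest Slc40a1 with the lowest macrophage sums.

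The ferritin subunits parted. Fth1 (ENSMUSG00000024661, chr19:9980598-9985098, plus strand), the heavy subunit, which oxidises iron for storage, had 1660, 1480 and 1410 CPM in KO cold and 1430, 1330 and 1380 CPM in KO RT. It had 1410, 1350 and 1520 CPM in WT cold and 1430, 1300 and 1190 CPM in WT RT. The groups overlapped in all 4 comparisons and Fth1 was called in none, with 95% intervals of -0.121 to 0.284 for KO minus WT at RT, -0.115 to 0.29 in the cold, -0.0697 to 0.336 for cold in KO and -0.0759 to 0.33 for cold in WT. With library totals it was called higher in KO (0.30, adjusted p = 0.043 at RT, where the range over alternatives was 0.043 to 0.94, and 0.53, adjusted p = 0.00084 in the cold, where it was 0.00084 to 0.9).

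Ftl1 (ENSMUSG00000050708, chr7:45457944-45459884, minus strand), the light subunit, which helps form the mineral core, was higher in KO and higher in the cold. It had 607, 591 and 450 CPM in KO cold and 393, 328 and 325 CPM in KO RT. It had 379, 338 and 364 CPM in WT cold and 215, 218 and 247 CPM in WT RT. The KO cold pools were above all others, the WT RT pools were below all others, and the KO RT and WT cold pools overlapped. Ftl1 was 1.54-fold higher in KO at RT (0.62 ± 0.11, adjusted p = 0.00043) and 1.52-fold higher in the cold (0.61 ± 0.11, adjusted p = 0.00029). Cold raised it 1.58-fold in KO (0.66 ± 0.11, adjusted p = 0.001) and 1.59-fold in WT (0.67 ± 0.11, adjusted p = 0.00014). These 4 calls held under all alternatives tried. The difference of cold responses was -0.01 ± 0.16 (95% interval -0.35 to 0.324).

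Per length, the ratio of Ftl1 to Fth1 was 0.936 ± 0.104 in KO cold, 0.652 ± 0.0539 in KO RT, 0.655 ± 0.0396 in WT cold and 0.454 ± 0.0752 in WT RT (SD, n = 3 pools each). Its KO cold values (0.947, 1.03 and 0.828) were above all others and its WT RT values (0.389, 0.436 and 0.537) below all others. The size of the ratio is uncertain. It rests on merged exon lengths of 3469 bases for Fth1 and 1340 for Ftl1, and any seldom used exons of Fth1 would raise it. Reads lost from Ftl1 would lower it, as 51.3% of its 75-base stretches also occur in 8 other annotated genes, ferritin pseudogenes among them. Reads with several alignments were not counted, and neither effect was measured. None of the 8 other genes had more than 40 counts in a library. Reads they share with Ftl1 were not counted for them either, so these counts do not show how many were lost. Macrophages are rich in ferritin, and their markers were higher in KO (9 of 11 at each temperature, beside 19.3% of all genes at RT and 25.9% in the cold). These markers were also higher in the cold in part (5 of 11 in KO and 3 of 11 in WT, beside 7.29% and 23% of all genes). The part of macrophages in the rise of Ftl1 was not tested.

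Alas1 (ENSMUSG00000032786, chr9:106233455-106248654, minus strand), the first and rate-limiting enzyme of heme synthesis outside the red cell lineage, had 185, 179 and 163 CPM in KO cold and 241, 116 and 139 CPM in KO RT. It had 152, 165 and 218 CPM in WT cold and 103, 162 and 129 CPM in WT RT. The groups overlapped in every comparison and no call was made by the edgeR test above. Without a filter beyond 1 count Alas1 was called higher for cold in WT (0.42, adjusted p = 0.00034) and in KO at RT (0.30, adjusted p = 0.019), with ranges over alternatives of 0.00034 to 0.56 and 0.019 to 0.86. Those calls are not relied on, because adjusted p in that setting did not follow the spread between pools. The 95% intervals were -0.296 to 0.953 for KO minus WT at RT, -0.646 to 0.601 in the cold, -0.532 to 0.714 for cold in KO and -0.183 to 1.07 for cold in WT. KO RT replicate 4 had the highest level of the 12 libraries, and without it KO minus WT at RT was -0.05 in place of 0.33. Alas1 overlaps 4930500F10Rik on the opposite strand, which had 2 to 15 counts.

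Fech (ENSMUSG00000024588, chr18:64452914-64490251, minus strand), ferrochelatase, the enzyme that inserts iron into the porphyrin, stood apart in WT cold. It had 107, 106 and 106 CPM in KO cold and 113, 115 and 115 CPM in KO RT. It had 77.5, 89.4 and 88.9 CPM in WT cold and 114, 112 and 115 CPM in WT RT. The WT cold pools were below all 9 others. Cold lowered Fech 1.34-fold in WT (-0.42 ± 0.076, adjusted p = 0.00026), and in the cold it was 1.25-fold higher in KO than in WT (0.32 ± 0.076, adjusted p = 0.0022). Both calls held under all alternatives tried. Cold in KO gave -0.11 ± 0.075 and was not called (adjusted p = 0.38), though the KO cold pools all lay below the KO RT pools. KO minus WT at RT was 0.005 ± 0.075 (95% interval -0.154 to 0.164). The difference of cold responses, 0.31 ± 0.11 (adjusted p = 0.043), was near the threshold. It was lost in 10 of 20 alternatives, among them leaving out WT RT replicate 2 or 3, KO RT replicate 5 or 6, WT cold replicate 1 or any 1 of the KO cold pools. The value stayed between 0.25 and 0.54, with adjusted p of 0.011 to 0.12.

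Levels of different genes were set side by side per kb of merged exons, a scale that understates genes with long, seldom used exons. Ftl1 may be undercounted on it, because reads that align to its copies as well were not counted. How many were lost was not measured, so its place relative to Fth1 and Hp is uncertain. As counted, Fth1 stood first in all 4 groups, at 437 ± 37.2 CPM per kb in KO cold, 398 ± 13.5 in KO RT, 411 ± 25.4 in WT cold and 376 ± 34.8 in WT RT (SD, n = 3). Ftl1 followed in KO cold, KO RT and WT cold, and Hp followed in WT RT. In KO cold the ranges of Fth1 and Ftl1 overlapped, and in KO RT and WT cold those of Ftl1 and Hp did. Alas1 and Hmox1 came next, with Hmox1 above Alas1 in both cold groups without overlap, and with overlapping ranges in both RT groups. Tfrc and Fech were neighbours with overlapping ranges in KO cold, KO RT and WT RT. The last place went to Slc40a1 in KO cold (0.86 ± 0.134 CPM per kb), KO RT (0.869 ± 0.0161) and WT cold (0.557 ± 0.102), and to Hpx in WT RT (0.295 ± 0.0358).

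**Figure D4:**
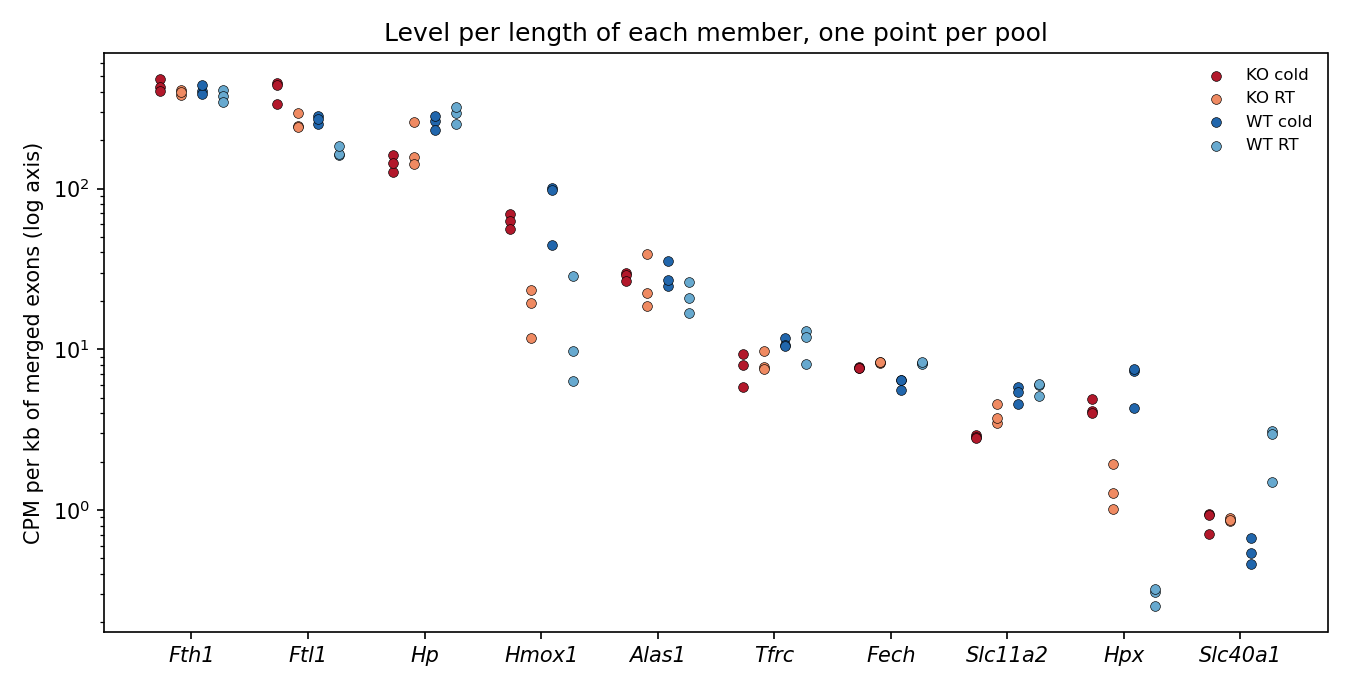
CPM per kb of merged exons on a log axis for each member, a point for each pool, coloured by group, with members ordered by their median. The members span from about the level of Fth1, at 376 to 437 CPM per kb in the group means, to Hpx in WT RT at 0.295 CPM per kb.

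Genes with the most similar pattern to a member were found by Pearson's r of log2 CPM over the 12 libraries among 13079 genes, as a description in which all points share the 4 groups. For Hpx these were Cars2 (r = 0.978), Tpcn2 (0.974) and Hspb8 (0.973). For Hmox1 they were Ccdc186 (0.947), Arntl (0.934) and Tbk1 (0.933). For Tfrc they were Ndufb4 (0.92), Nudt5 (0.917) and Dpy19l1 (0.916).

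Of 13 other genes of heme synthesis, all tested, 0 were higher and 6 lower in KO against WT at RT. In the cold 2 were higher and 5 lower. Cold in KO gave 1 higher and 3 lower, and cold in WT gave 2 and 7. The median log2 fold changes were -0.31, 0.015, -0.093 and -0.25 in this order, beside the medians of all genes given above. Among the 15208 genes tested, the shares called higher and lower were 19.3% and 21% for KO against WT at RT. For the same comparison in the cold these shares were 25.9% and 27.8%. They were 7.29% and 7.56% for cold in KO, and 23% and 23.2% for cold in WT. The counts of this list and of those below stand beside these shares and were not tested against them. The mitochondrial transporter Abcb10, which is needed for heme synthesis, was lower in WT in the cold, at 15.2 ± 0.792 CPM, against 29.1 ± 4.33 CPM at RT (-0.94 ± 0.1, adjusted p = 1.9e-06). Alad, which makes porphobilinogen, was lower there too, at 20.6 ± 2.07 CPM in the cold and 34.6 ± 5.64 CPM at RT (-0.75 ± 0.13). Clpx, a mitochondrial unfoldase that acts on the aminolevulinate synthases, was lower in KO at RT (65.3 ± 5.92 CPM in KO, 98.5 ± 8.57 CPM in WT, -0.59 ± 0.096). Slc25a39, the mitochondrial glutathione carrier, was lower in KO in the cold (254 ± 6.87 CPM in KO, 399 ± 28 CPM in WT, -0.65 ± 0.1, adjusted p = 6.5e-05), a call that ended with library totals (-0.21, adjusted p = 0.11, range over alternatives 6.1e-09 to 0.11).

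Of 12 tested genes of heme transport and breakdown, 2 were higher and 1 lower in KO at RT, 4 and 2 in KO in the cold, 2 and 0 for cold in KO, and 1 and 3 for cold in WT (medians 0.063, 0.26, 0.039 and -0.096). The gene called higher in WT in the cold was Hmox2, the constitutive heme oxygenase, at 93.4 ± 7.23 CPM in the cold and 49 ± 3.92 CPM at RT (0.93 ± 0.1, adjusted p = 2.5e-06), beside the larger rise of Hmox1 there. Lrp1, the receptor for the heme-hemopexin complex, was lower in WT in the cold, at 84.7 ± 9.13 CPM against 151 ± 13.7 CPM at RT (-0.84 ± 0.1, adjusted p = 6.4e-06). In the cold Abcg2, an exporter of porphyrins and heme, was higher in KO (28.8 ± 5.1 CPM in KO, 12.9 ± 1.31 CPM in WT, 1.16 ± 0.13, adjusted p = 1.7e-06), as was the lysosomal heme transporter Slc48a1 (78 ± 2.47 CPM in KO, 57.5 ± 6.25 CPM in WT, 0.44 ± 0.085, adjusted p = 0.00042).

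Of 22 tested genes of iron uptake, export and control, 4 were higher and 5 lower in KO at RT, 7 and 5 in KO in the cold, 2 and 1 for cold in KO, and 4 and 8 for cold in WT (medians -0.12, -0.15, 0.047 and 0.0015). Aco1, the cytosolic aconitase that serves as iron regulatory protein 1 and binds IREs, was lower in WT in the cold, at 104 ± 6.59 CPM against 201 ± 23.6 CPM at RT (-0.95 ± 0.095, adjusted p = 6.9e-07). The metalloreductase Steap4 was lower as well, at 70 ± 8.46 CPM in the cold and 206 ± 31.4 CPM at RT (-1.56 ± 0.11, adjusted p = 2.5e-08). In the cold KO was above WT for Cp, the ferroxidase ceruloplasmin (54 ± 4.26 CPM in KO, 28.2 ± 4.19 CPM in WT, 0.94 ± 0.11), and for Bmp6, the signal that drives hepcidin in liver (39.3 ± 2.9 CPM in KO, 19.6 ± 3.05 CPM in WT, 0.998 ± 0.11).

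Of 17 tested genes of iron-sulfur cluster assembly, the other major use of mitochondrial iron, 1 was higher and 5 lower in KO at RT, 3 and 8 in KO in the cold, 0 and 3 for cold in KO, and 7 and 4 for cold in WT (medians -0.038, -0.15, -0.071 and 0.17). Isca1, a late-acting assembly factor, was lower in KO in the cold (90.5 ± 4.67 CPM in KO, 169 ± 6.46 CPM in WT, -0.90 ± 0.082, adjusted p = 2.8e-07). Iba57, which acts with Isca1, was lower in KO at RT (11.4 ± 0.49 CPM in KO, 21.7 ± 0.277 CPM in WT, -0.93 ± 0.093). Ciapin1, of the cytosolic assembly pathway, was higher in WT in the cold, at 123 ± 1.77 CPM against 78.5 ± 1.59 CPM at RT (0.64 ± 0.07).

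Among 13 tested acute-phase and NRF2-type genes, often measured with Hp, Hpx and Hmox1, 2 were higher and 0 lower in KO at RT, 3 and 4 in KO in the cold, 4 and 0 for cold in KO, and 6 and 1 for cold in WT (medians 0.059, 0.046, 0.37 and 0.4). In WT in the cold Srxn1, which repairs peroxiredoxins, was at 151 ± 16.2 CPM against 54.3 ± 2.48 CPM at RT (1.48 ± 0.12, adjusted p = 6.3e-08), and the thioredoxin reductase Txnrd1 at 144 ± 5.02 CPM against 77.9 ± 5.54 CPM at RT (0.88 ± 0.097). The secreted glycoprotein Lrg1 was lower there (33.4 ± 1.78 CPM in the cold, 52.3 ± 1.87 CPM at RT, -0.65 ± 0.11). Stat3, which carries cytokine signals to the nucleus, was higher in KO in the cold (72 ± 3.04 CPM in KO, 41.4 ± 1.18 CPM in WT, 0.80 ± 0.074). Between the genotypes the cold response was higher in KO for 3 and lower for 1 of the heme synthesis genes, for 2 and 1 of heme transport and breakdown, for 6 and 4 of iron uptake, export and control, for 2 and 4 of iron-sulfur assembly, and for 1 and 2 of the acute-phase and NRF2-type genes. Of all genes, 10.6% were called higher and 12.9% lower for this difference. Of the genes named from the lists, Alad, Abcg2, Steap4, Aco1, Iba57, Srxn1 and Lrg1 overlap no other annotated gene. The others overlap 1 or more, mostly on the opposite strand, and their values are uncertain to that extent.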

How the data were processed

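The deposited files held unnormalised gene counts by Ensembl ID, with a file for each pool. STAR, HTSeq and GRCm38 are named for the authors' processing, per the submitters' processing notes. Versions and the library kit are not given in the sources used here, and the strand setting is named only in the deposited count files' names. HTSeq's summary lines were left out (1.64 to 2.26% of lines outside genes, 1.07 to 1.37% ambiguous, 1.12 to 1.86% unaligned, 26.6 to 30.2% with several alignments). GENCODE M21 named 53274 of 53379 IDs.

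In R 4.3.3, edgeR 4.0.16 (filterByExpr by group, 15208 genes kept and 38171 removed, TMM factors 0.798 to 1.18, robust quasi-likelihood test) was fitted to all 12 libraries with 1 mean per group. P-values were adjusted by Benjamini-Hochberg over all genes tested, with a threshold of 0.05. Fitted fold changes used a prior count of 0.125, and standard errors were derived as |log2 fold change| / √F. The common biological coefficient of variation was 13.6%. Alternatives were median-ratio size factors, library totals, no filter beyond 1 count, CPM of at least 1 in 6 libraries, DESeq2 1.42.0, limma 3.58.1 voom with sample weights, mitochondrial genes left out, only the 6 libraries compared, a replicate block, each library left out in turn and both muscle-rich libraries left out.

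The members, lists and tests were chosen with earlier results of these data known. All members are named whatever their result. From each list the 4 genes with the smallest p over the pairwise comparisons are named, in that comparison, except 1 that is not reported here. Likeness used log2 CPM with a prior count of 2 and genes with official symbols. Trf was entered by its synonym Tf after the files were seen. Hjv and Ahsp are not used here. The pools are replicates per the labels, and p-values measure the spread between them, except with no filter beyond 1 count. In that setting several adjusted p-values were far smaller at nearly the same fold change. Hmox1 for cold in WT was 2.44 there (adjusted p = 2.1e-110), beside 2.46 (adjusted p = 0.0092) in the main fit. Such values are not taken to measure that spread, and they set the low end of many ranges over alternatives.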

Additional observations from a re-analysis of the deposited data

Results flagged for a closer look

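Of the 9 members tested, 2 had a cold response that differed between KO and WT by the interaction test. For Slc40a1 the cold response in KO minus that in WT was 2.18 on the log2 scale (adjusted p = 0.0013), with -0.01 in KO and -2.19 in WT. For Fech it was 0.312 (adjusted p = 0.043), with -0.11 in KO and -0.42 in WT, and this call was lost in 10 of 20 alternatives.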

How the results depend on the processing

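Among the tested values of single members under the alternatives, 642 kept their direction and their side of the threshold, 34 gained a call, 21 lost one and 56 changed sign, all of the last among differences that were not called. Some of the calls gained came with no filter beyond 1 count, where adjusted p is not taken to measure the spread between pools. Of the Hpx values without a test, 66 moved by less than the spread between pools and 1 by more (-0.112 with library totals for KO against WT in the cold). Of the values of the named list genes, 317 kept their call and 1 lost it. These genes were picked by their smallest p and followed in that comparison alone, so this count is not comparable with that of the members. The cause of each change was not tested.

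With no filter beyond 1 count, 7 members were called in KO against WT at RT and 7 in the cold, and 5 for cold in KO. These higher counts are not relied on, because adjusted p in that setting is not taken to measure the spread between pools. Without both muscle-rich libraries, 1 member was called for the difference of cold responses. Leaving out 1 library gave 1 to 2 calls for that difference, 3 to 5 for KO against WT at RT, 4 to 5 for KO against WT in the cold, 2 to 3 for cold in KO and 4 for cold in WT. The share of all genes called under the alternatives is not given here.

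The sign changes were these. With library totals, KO against WT in the cold was 0.0599 for Hmox1 and 0.42 for Alas1, cold in WT was -0.06 for Fth1, cold in KO was 0.0205 for Slc40a1, and the difference of cold responses was 0.0388 for Hp, 0.152 for Tfrc and 0.219 for Ftl1. With no filter beyond 1 count, Fech at RT was -0.0193, Slc40a1 for cold in KO 0.00852 and Ftl1 for the difference 0.0333. With the strict filter, Alas1 in the cold was 0.0373 and Ftl1 for the difference 0.015. With limma voom, Alas1 in the cold was 0.0245, Slc40a1 for cold in KO 0.0408, and the difference was 0.0777 for Tfrc, -0.0264 for Fth1 and 0.127 for Ftl1. With only the 6 libraries compared, Alas1 in the cold was 0.0124 and Slc40a1 for cold in KO 0.000967. Without both muscle-rich libraries, KO against WT at RT was -0.298 for Hmox1 and -0.011 for Fech, Tfrc for cold in WT was 0.123 and Alas1 for cold in KO -0.021.

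With 1 library left out, KO against WT at RT ran from -0.0774 to 1.17 for Hmox1, -0.0508 to 0.528 for Alas1 and -0.00849 to 0.00985 for Fech, and in the cold from -0.129 to 0.154 for Alas1. Cold in WT ran from -0.189 to 0.123 for Tfrc. Cold in KO ran from -0.276 to 0.0525 for Tfrc, -0.0906 to 0.109 for Slc40a1 and -0.111 to 0.468 for Alas1. The difference ran from -0.361 to 0.117 for Hp, -0.265 to 0.0882 for Tfrc, -0.0637 to 0.0846 for Fth1, -0.0908 to 0.111 for Ftl1 and -0.553 to 0.0266 for Alas1.

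Replicate numbers are shared by 3 of the 4 groups. Samples with the same number did not deviate together (correlations of -0.306 to 0.229), so the numbers are not taken as pairs. With the replicate block, fitted to 9 libraries, 5 members were called for cold in WT and 5 in KO against WT in the cold, where Alas1 was 0.00149; the calls gained were Alas1 for cold in WT (0.447, adjusted p = 0.048, range over alternatives 0.00034 to 0.56) and Slc40a1 in the cold (0.67, adjusted p = 0.049, range 2.1e-05 to 0.17). Depth limits Hpx in WT RT, with 12 to 17 counts for each library.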
